A study of Mus musculus with 12 samples.

Results

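Blood stem cells in bone marrow are kept by proteins that neighbouring stromal cells secrete or display, and 8 genes for such proteins were followed here across 4 sorted bone and marrow stromal populations. The 8 were taken by name as haematopoietic niche ligands: the chemokine gene Cxcl12, the growth factor genes Kitl, Angpt1, Flt3l and Thpo, the lymphoid cytokine genes Il7 and Il15, and the heparin-binding growth factor gene Ptn. They are 8 of the 49585 genes in the count files and 8 of the 18648 genes that had at least 0.5 CPM (counts per 1e6 counts) in at least 1 library and were tested, so no ligand was lost to the filter on low counts.

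RNA-seq libraries were made from 2000 sorted cells each, with 3 libraries per population and 12 in all, from male wild-type C57BL/6 mice aged 8 to 10 weeks. All cells were negative for CD45, Ter119 and CD31, the surface markers of blood, erythroid and endothelial cells. Itga8+ MSCs and Itga8-Alcam+ BLCs (bone-lining cells, which the labels call osteoblasts) were sorted from collagenase-digested bone fragments as Alcam+Sca-1- cells with and without Itga8. Sca-1+ MSCs came from the same bone digest, and CD51+CD140a+ MSCs came from flushed marrow digested with another enzyme mix, so for every comparison with CD51+CD140a+ MSCs the population, the marrow compartment and the digestion cannot be told apart. No treatment or transgene was used. The sources used here do not say whether the 3 libraries of a population came from separate mice, so p-values measure the spread between these libraries, which may be technical.

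The libraries held 17580677 to 31332475 counted reads, and 3 counts corresponded to 0.0819 to 0.180 CPM, a floor that covers counting error only. The sort markers followed the gates in part. Itga8 stood at 35.1 to 199 CPM in Itga8+ MSCs and at 0.398 to 4.17 CPM in Itga8-Alcam+ BLCs, but also at 53.1 to 82.9 CPM in CD51+CD140a+ MSCs. Ly6a, the gene for Sca-1, stood at 611 to 659 CPM in Sca-1+ MSCs and at most at 35.7 CPM elsewhere, and Alcam, whose protein was used for sorting, stood at only 1.29 to 5.81 CPM in the Alcam+ populations and at most at 0.221 CPM in the others. Pdgfra, the gene for CD140a, stood at 681 to 867 CPM in CD51+CD140a+ MSCs but also at 734 to 1019 CPM in Sca-1+ MSCs, and at 5.35 to 148 CPM in the Alcam+ populations. Itgav, the gene for CD51, overlapped between CD51+CD140a+ MSCs (121 to 195 CPM) and Sca-1+ MSCs (126 to 150 CPM). The summed level of 10 osteoblast markers was 44774 to 117086 CPM in Itga8-Alcam+ BLCs and 2931 to 22083 CPM in the other populations. Blood cell transcripts were present in every library: 11 of 12 haematopoietic markers were detected in each population and Cd3e, the T cell marker, had 0 counts throughout. The summed haematopoietic level was 2325 to 11978 CPM in Itga8+ MSCs, 4384 to 6561 CPM in Itga8-Alcam+ BLCs, 892 to 1748 CPM in Sca-1+ MSCs and 1000 to 1706 CPM in CD51+CD140a+ MSCs, with the highest value in Itga8+ replicate 2.

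As background, the CXCL12 protein attracts and holds stem and lymphoid cells that carry the receptor CXCR4, and KITL (stem cell factor) sustains them through the receptor tyrosine kinase KIT. In adult marrow both are known chiefly from perivascular stromal cells that express the leptin receptor, LepR, many of which carry CD51 and CD140a. Cells that line the bone surface have been studied as a second, endosteal site of such support.

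CD51+CD140a+ MSCs had the highest mean level of 6 of the 8 ligands, Cxcl12, Kitl, Angpt1, Il7, Il15 and Flt3l. The mean of Thpo was highest in Sca-1+ MSCs, and that of Ptn in Itga8+ MSCs. All 8 ligands differed among the 4 populations at a false discovery rate (FDR, Benjamini-Hochberg over all genes tested) under 0.1 in edgeR's quasi-likelihood F test, and 47.5% of all genes tested did. The FDR ranged from 1.12e-07 for Kitl to 0.0217 for Thpo. In the pairwise comparisons below, a gene was called at an FDR under 0.1 in the same two-sided edgeR fit, provided that the fold change exceeded 2. Levels are CPM scaled by trimmed mean of M-values (TMM) factors. All libraries of 1 population were fitted once and serve in 3 comparisons, so the 3 comparisons that involve CD51+CD140a+ MSCs share its libraries and are not independent of each other. In bulk RNA, fewer expressing cells and less RNA per cell cannot be told apart.

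**Figure D1:**
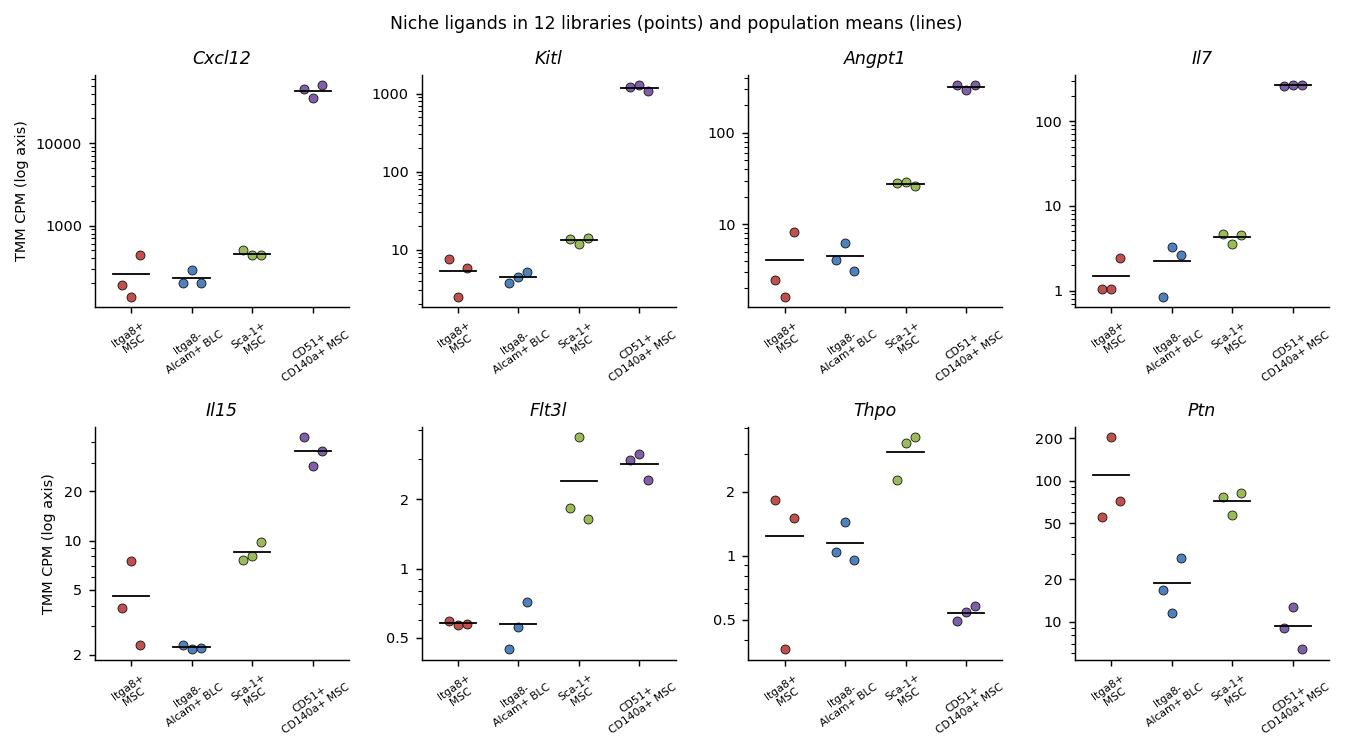
Levels of the 8 ligands in TMM CPM (vertical log axes, a range of their own for each gene) in the 4 populations (horizontal), with 1 point per library and a line at the mean of 3 libraries. The libraries of CD51+CD140a+ MSCs stand above all others for Cxcl12, Kitl, Angpt1, Il7 and Il15. The mean of Ptn is lowest in CD51+CD140a+ MSCs, whose Ptn levels overlap with those of Itga8-Alcam+ BLCs.

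The sequence just before the start of 3 of these genes is given because Cxcl12 and Kitl were highest in CD51+CD140a+ MSCs whereas the mean of Ptn was lowest there. The stretches come from RefSeq on GRCm38, read 5′ to 3′ on the strand of the gene, and end at the last base before the RefSeq start (Cxcl12, 250 bases, chr6:117168285-117168534, plus strand; Kitl, 30 bases, chr10:100015791-100015820, plus strand) or before the first annotated exon in GENCODE M21 (Ptn, 209 bases, chr6:36810221-36810429, minus strand). The RefSeq start of Kitl lies downstream of the gene's first base in GENCODE M21, so the Kitl stretch falls inside the gene as given below. Capitals mark TATAAA and the GC box CCGCCC, each on either strand, where overlapping matches run together.
Cxcl12: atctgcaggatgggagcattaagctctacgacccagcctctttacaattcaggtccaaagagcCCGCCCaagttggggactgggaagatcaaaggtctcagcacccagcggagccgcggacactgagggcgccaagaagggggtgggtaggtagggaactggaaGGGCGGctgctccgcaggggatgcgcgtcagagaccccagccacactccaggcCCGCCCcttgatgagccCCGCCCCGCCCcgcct
Kitl: agctgTATAAAaagcgctggcggcgcagca
Ptn: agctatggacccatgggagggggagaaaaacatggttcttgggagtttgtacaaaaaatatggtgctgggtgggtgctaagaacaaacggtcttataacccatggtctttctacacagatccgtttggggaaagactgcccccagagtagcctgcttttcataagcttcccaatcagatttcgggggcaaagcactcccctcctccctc
The Cxcl12 stretch held 5 GC boxes and was 64.4% G or C, and the Ptn stretch held no GC box and was 49.8% G or C. In the whole 300-base RefSeq windows there were 5 GC boxes for Cxcl12, 3 for Kitl, 1 for Flt3l, 0 and 1 in the 2 windows of Thpo and 0 for Ptn, and 35.7% of 32851 such windows held at least 1. The 30 bases before the Kitl start held 1 TATAAA, which 2.04% of all promoters hold in that window. Both motifs were chosen after the sequences had been read. The palindromic EBF motif and the motifs of forkhead (GTAAACA) and C/EBP factors (TTGCNNAA), families with members active in LepR+ stroma, had no match on either strand in the 300-base windows of Cxcl12, Kitl, Flt3l, Thpo or Ptn, and were found in 0.904%, 3.65% and 10.8% of all promoters. No RefSeq window was found for Angpt1, Il7 and Il15, so these were not searched. A match or its absence in such a window describes letters only.

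Cxcl12 (ENSMUSG00000061353, chr6:117168535-117181367, plus strand) was the gene with the highest count in each library of CD51+CD140a+ MSCs, where it took 3.92% to 5.30% of all counts, and its rank was 219 to 1307 in the other libraries. It stood at 44804, 34975 and 50648 CPM in the 3 libraries of CD51+CD140a+ MSCs. It stood at 501, 434 and 435 CPM in Sca-1+ MSCs. The 2 Alcam+ populations were lower still on average, with 191, 137 and 444 CPM in Itga8+ MSCs and 202, 290 and 201 CPM in Itga8-Alcam+ BLCs. The libraries of CD51+CD140a+ MSCs lay far above all others, and those of Itga8+ MSCs overlapped with both Itga8-Alcam+ BLCs and Sca-1+ MSCs because of Itga8+ replicate 3. Cxcl12 was called higher in CD51+CD140a+ MSCs than in Itga8+ MSCs (169-fold, log2 fold change of Itga8+ over CD51+CD140a+ -7.40 ± 0.51 (SE), FDR 2.01e-06), Itga8-Alcam+ BLCs (188-fold, FDR 1.82e-06) and Sca-1+ MSCs (95.2-fold, FDR 3.57e-06). Without Itga8+ replicate 3 the log2 fold change of Itga8+ over CD51+CD140a+ MSCs was -8.05. Among the 3 bone populations Cxcl12 was not called in the edgeR fit of all 12 libraries with TMM factors. Itga8-Alcam+ BLCs came close to the fold threshold against Sca-1+ MSCs, 1.98-fold lower at an FDR of 0.0935, and every Itga8-Alcam+ library lay below every Sca-1+ library. Without Itga8-Alcam+ replicate 2 this difference was called (log2 fold change -1.23, FDR 0.0717), as was that of Itga8+ against Sca-1+ MSCs without Itga8+ replicate 3 (-1.51, FDR 0.00758). Limma-trend called both differences (FDR 0.0683 and 0.0785), and that of Itga8-Alcam+ BLCs was also called with library totals alone (-1.21, FDR 0.0339) and in a fit of these 2 populations (-1.02, FDR 0.0226).

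Kitl (ENSMUSG00000019966, chr10:100015630-100100416, plus strand) had a similar profile at a lower level. Its levels in CD51+CD140a+ MSCs were 1206, 1291 and 1076 CPM. Sca-1+ MSCs had 13.6, 11.7 and 14.3 CPM, Itga8+ MSCs 7.57, 2.49 and 5.89 CPM, and Itga8-Alcam+ BLCs 3.68, 4.45 and 5.21 CPM. The 4 populations thus fell into 3 steps with no overlap between steps, and the 2 Alcam+ populations shared the lowest. Kitl was called higher in CD51+CD140a+ MSCs than in Itga8+ MSCs (224-fold, FDR 1.07e-06), Itga8-Alcam+ BLCs (268-fold, FDR 8.18e-07) and Sca-1+ MSCs (90.1-fold, FDR 2.18e-06). It was also called higher in Sca-1+ MSCs than in Itga8+ MSCs (2.48-fold, FDR 0.0268) and Itga8-Alcam+ BLCs (2.97-fold, FDR 0.00914). Without Itga8+ replicate 2, the library with the most haematopoietic transcripts and the lowest Kitl, the log2 fold change of Itga8+ over Sca-1+ MSCs was -0.99 at an FDR of 0.0201, just under the fold threshold, and the call was lost when only these 2 populations were fitted (-1.34, FDR 0.123). Counts per gene do not separate the transcripts for membrane-bound and soluble KITL.

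Angpt1 (ENSMUSG00000022309, chr15:42424723-42676977, minus strand) codes for angiopoietin-1, a ligand of the receptor TEK that stabilises vessels and has been tied to stem cell quiescence. Of the 8 ligands it had the largest fitted log2 fold change between Sca-1+ MSCs and each of the Alcam+ populations. CD51+CD140a+ MSCs had 333, 292 and 331 CPM and Sca-1+ MSCs had 28.0, 28.6 and 26.2 CPM. Itga8+ MSCs had 2.42, 1.61 and 8.14 CPM, and Itga8-Alcam+ BLCs had 4.08, 6.21 and 3.06 CPM. Again the Alcam+ populations overlapped with each other and lay below every other library. Sca-1+ MSCs were called higher than Itga8+ MSCs (6.82-fold, FDR 0.00417) and Itga8-Alcam+ BLCs (6.19-fold, FDR 0.00412), and CD51+CD140a+ MSCs were called higher than Itga8+ MSCs (78.8-fold, FDR 1.93e-05), Itga8-Alcam+ BLCs (71.5-fold, FDR 2.11e-05) and Sca-1+ MSCs (11.6-fold, FDR 0.000508). Without Itga8+ replicate 3 the log2 fold change of Itga8+ over Sca-1+ MSCs went from -2.77 to -3.81. That of Itga8+ over CD51+CD140a+ MSCs went from -6.30 to -7.30. Of the exon bases of Angpt1, 14.2% overlap with Gm17473 on the opposite strand, and the use of strand in the counting is not given in the sources used here.

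Il7 (ENSMUSG00000040329, chr3:7569994-7613760, minus strand) codes for interleukin-7, which developing B and T lymphocytes need. Its levels in CD51+CD140a+ MSCs were nearly equal, at 264, 268 and 265 CPM. The other 9 libraries stood between 0.846 and 4.65 CPM, with 4.65, 3.51 and 4.59 CPM in Sca-1+ MSCs, 1.04, 1.04 and 2.43 CPM in Itga8+ MSCs and 0.846, 3.29 and 2.64 CPM in Itga8-Alcam+ BLCs. No library of the bone populations came near those of CD51+CD140a+ MSCs. Il7 was called higher in CD51+CD140a+ MSCs in all 3 comparisons, with fitted folds of 177 over Itga8+ MSCs (FDR 3.99e-06), 117 over Itga8-Alcam+ BLCs (FDR 5.91e-06) and 62.5 over Sca-1+ MSCs (FDR 1.19e-05). Sca-1+ MSCs were called higher than Itga8+ MSCs (2.84-fold, FDR 0.0474), a call that was lost without any of 4 of the 6 libraries compared (Itga8+ replicates 1 and 2, Sca-1+ replicates 1 and 3), and 1.88-fold higher than Itga8-Alcam+ BLCs without a call (FDR 0.171), which was made with library totals alone (log2 fold change of Itga8-Alcam+ over Sca-1+ -1.19, FDR 0.0568) and without Itga8-Alcam+ replicate 2 (-1.35, FDR 0.0741).

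Il15 (ENSMUSG00000031712, chr8:82331632-82403222, minus strand) codes for interleukin-15, which supports natural killer cells and memory T cells and is shown to them bound to its receptor chain IL15RA. It had a shallower profile. CD51+CD140a+ MSCs had 42.7, 28.6 and 35.3 CPM, Sca-1+ MSCs 7.63, 8.03 and 9.79 CPM, Itga8+ MSCs 3.86, 7.53 and 2.31 CPM, and Itga8-Alcam+ BLCs 2.29, 2.18 and 2.22 CPM. The highest Itga8+ value, just under the lowest of Sca-1+ MSCs, was in replicate 2. CD51+CD140a+ MSCs were called higher than Itga8+ MSCs (7.76-fold, FDR 0.000277), Itga8-Alcam+ BLCs (15.9-fold, FDR 4.68e-05) and Sca-1+ MSCs (4.18-fold, FDR 0.00313), and Sca-1+ MSCs were called higher than Itga8-Alcam+ BLCs (3.80-fold, FDR 0.00629). Sca-1+ MSCs were 1.86-fold above Itga8+ MSCs without a call (FDR 0.139), and the difference was called by limma-trend (log2 fold change of Itga8+ over Sca-1+ -1.03, FDR 0.0913) and without Itga8+ replicate 2 (-1.47, FDR 0.0119). Itga8+ MSCs stood 2.05-fold above Itga8-Alcam+ BLCs at an FDR of 0.289, and without Itga8+ replicate 3 that difference was called (log2 fold change 1.34, FDR 0.0888).

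Flt3l (ENSMUSG00000110206, chr7:45129788-45136432, minus strand) codes for the ligand of FLT3, which lymphoid progenitors and dendritic cells need. It was rare everywhere, with 2.95, 3.15 and 2.42 CPM in CD51+CD140a+ MSCs and 1.83, 3.71 and 1.64 CPM in Sca-1+ MSCs. These 2 populations overlapped, with a difference of 1.19-fold (log2 fold change of Sca-1+ over CD51+CD140a+ -0.25 ± 0.45 (SE), FDR 0.819). The Alcam+ populations were lower, at 0.594, 0.571 and 0.578 CPM in Itga8+ MSCs and 0.448, 0.556 and 0.719 CPM in Itga8-Alcam+ BLCs. Itga8+ MSCs were called lower than Sca-1+ MSCs (4.09-fold, FDR 0.0158) and CD51+CD140a+ MSCs (4.85-fold, FDR 0.00467), and Itga8-Alcam+ BLCs likewise (4.15-fold, FDR 0.0118, and 4.92-fold, FDR 0.00424). Its level in an Alcam+ library rested on 9 to 12 counts, and 22.1% of its exon bases are shared with Gm45713 on the same strand, so its counts are uncertain.

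Thpo (ENSMUSG00000022847, chr16:20724454-20734511, minus strand) codes for thrombopoietin, the growth factor of megakaryocytes and of stem cells, made mostly by the liver. It was as rare as Flt3l but ordered differently. Sca-1+ MSCs had the highest levels, 2.27, 3.41 and 3.61 CPM, and CD51+CD140a+ MSCs had 0.492, 0.544 and 0.580 CPM. Itga8+ MSCs had 1.83, 0.363 and 1.50 CPM, and Itga8-Alcam+ BLCs had 1.05, 1.44 and 0.959 CPM. Every Sca-1+ library lay above every library of the other populations. Sca-1+ MSCs were called higher than CD51+CD140a+ MSCs (5.70-fold, FDR 0.0105) and than Itga8-Alcam+ BLCs (2.69-fold, FDR 0.0959), and the second call was lost under 10 of 16 alternatives. Against Itga8+ MSCs they were 2.51-fold higher without a call (FDR 0.131), which DESeq2 (log2 fold change of Itga8+ over Sca-1+ -1.32, FDR 0.0572) and limma-trend (-1.49, FDR 0.0736) made. Itga8+ MSCs were 2.28-fold above CD51+CD140a+ MSCs without a call (FDR 0.137), and this difference was called by DESeq2 (log2 fold change 1.22, FDR 0.0774) and without Itga8+ replicate 2 (1.64, FDR 0.0218). Of the Thpo exon bases, 9.09% overlap with Chrd on the opposite strand.

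Ptn (ENSMUSG00000029838, chr6:36714929-36810220, minus strand) codes for pleiotrophin, a secreted protein that binds heparan sulphate and has been described as a regulator of stem cell regeneration. It ran against the first 5 ligands. Itga8+ MSCs had 55.1, 203 and 71.9 CPM and Sca-1+ MSCs had 76.7, 57.6 and 82.5 CPM. Itga8-Alcam+ BLCs had 16.7, 11.5 and 28.2 CPM, and CD51+CD140a+ MSCs had 8.99, 12.7 and 6.41 CPM. The libraries of the first pair of populations overlapped with each other and lay above those of the second pair, which also overlapped. Ptn was the single ligand called between Itga8+ MSCs and Itga8-Alcam+ BLCs, 5.85-fold higher in Itga8+ MSCs (log2 fold change 2.55 ± 0.52 (SE), FDR 0.0214). Against CD51+CD140a+ MSCs it was called higher in Itga8+ MSCs (11.7-fold, FDR 0.000483). It was also called higher in Sca-1+ MSCs than in CD51+CD140a+ MSCs (7.72-fold, FDR 0.00182) and Itga8-Alcam+ BLCs (3.84-fold, FDR 0.0185). Itga8+ replicate 2 held the highest Ptn level and the most haematopoietic (11978 CPM) and erythroid (1598 CPM) marker transcripts of all 12 libraries. Of the Itga8+ libraries it also held the least Col1a1 (213 against 5950 and 7215 CPM) and the least Itga8 (35.1 against 73.5 and 199 CPM). The part of blood cells or of other traits of this library in the Ptn level was not tested. Without it, Ptn was still called against Itga8-Alcam+ BLCs (log2 fold change 1.79, FDR 0.0304) and CD51+CD140a+ MSCs (log2 fold change 2.78, FDR 0.00033). Without it the fitted Ptn difference from Sca-1+ MSCs turned, from a log2 fold change of 0.61 to -0.21 (FDR 0.781). The call against Itga8-Alcam+ BLCs was lost when only the 6 libraries of both populations were fitted (log2 fold change 2.52, FDR 0.148).

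**Figure D2:**
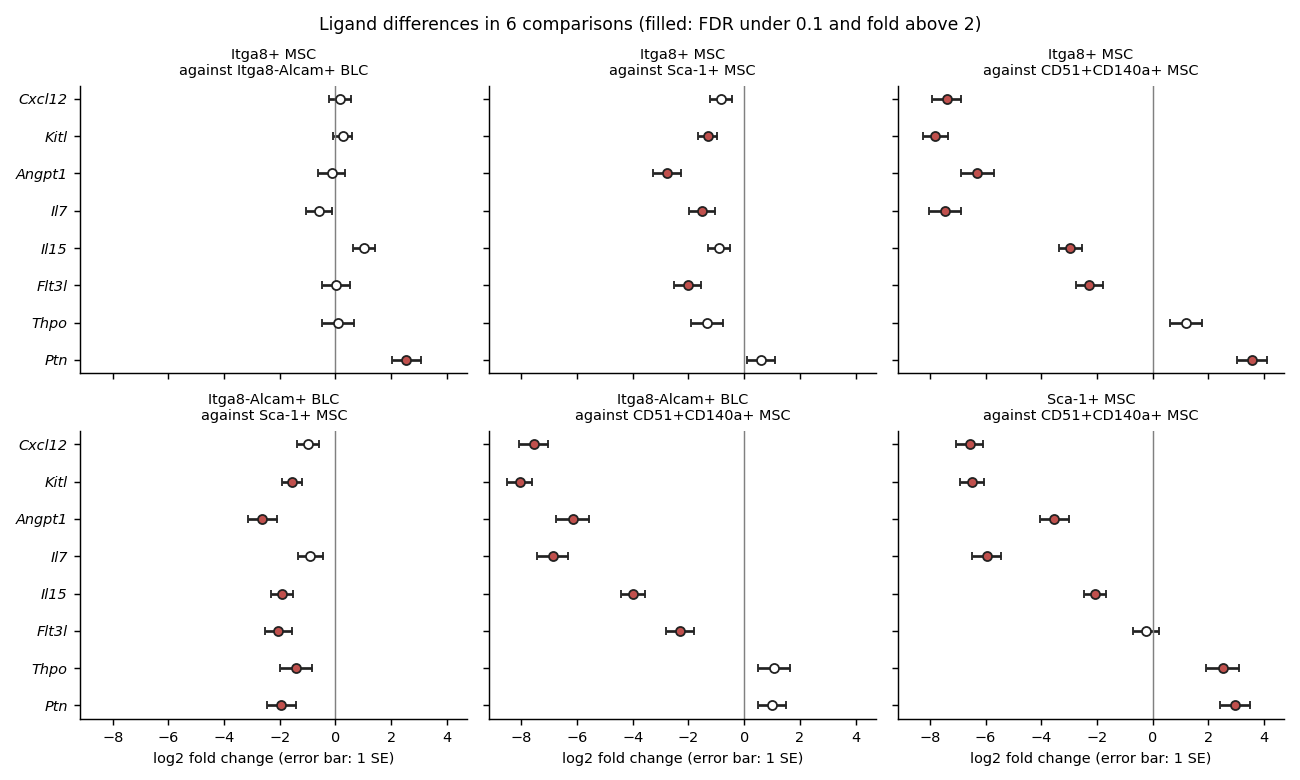
Fitted log2 fold changes (horizontal, first population over second) of the 8 ligands (vertical) in the 6 comparisons, with error bars of 1 SE, and filled points for an FDR under 0.1 with a fold above 2. Against CD51+CD140a+ MSCs most ligands lie far to the left and Ptn and Thpo to the right, and 1 ligand, Ptn, is filled between Itga8+ MSCs and Itga8-Alcam+ BLCs.

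Counted by comparison, the ligands split CD51+CD140a+ MSCs from each bone population. Against Itga8+ MSCs, 6 of 8 were called higher in CD51+CD140a+ MSCs, where 14.3% of all genes tested were, and Ptn was called higher in Itga8+ MSCs, where 21.2% of all genes were. Against Itga8-Alcam+ BLCs, 6 of 8 were again called higher in CD51+CD140a+ MSCs (14.9% of all genes) and 0 of 8 in Itga8-Alcam+ BLCs (20.4% of all genes). Ptn there had a log2 fold change of 1.00 ± 0.50 (SE) and an unadjusted edgeR p of 0.0657 (called without Itga8-Alcam+ replicate 2, 1.25, FDR 0.0824), Thpo one of 1.09 with an unadjusted p of 0.0837, and DESeq2 and limma-trend also called 6 ligands in all. Against Sca-1+ MSCs, 5 of 8 were called higher in CD51+CD140a+ MSCs (9.30% of all genes), Ptn and Thpo were called higher in Sca-1+ MSCs (11.2% of all genes) and Flt3l was not called. The median log2 fold change of the 8 ligands over CD51+CD140a+ MSCs was -4.63 in Itga8+ MSCs, -5.08 in Itga8-Alcam+ BLCs and -2.80 in Sca-1+ MSCs, beside medians over all genes tested of 0.18, 0.091 and -0.0026.

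Within bone, each ligand called between Sca-1+ MSCs and an Alcam+ population was higher in Sca-1+ MSCs. Against Itga8+ MSCs, 4 of 8 ligands (Kitl, Angpt1, Il7 and Flt3l) were called higher in Sca-1+ MSCs, where 8.89% of all genes were, and 0 of 8 in Itga8+ MSCs, where 12.9% of all genes were. Ptn was the 1 ligand with a higher mean in Itga8+ MSCs, 1.52-fold at an unadjusted p of 0.24. Against Itga8-Alcam+ BLCs, 6 of 8 ligands (Kitl, Angpt1, Il15, Flt3l, Thpo and Ptn) were called higher in Sca-1+ MSCs (11.9% of all genes) and 0 of 8 in Itga8-Alcam+ BLCs (14.5% of all genes), and all 8 fitted differences pointed to Sca-1+ MSCs. Between the Alcam+ populations, 1 of 8 was called higher in Itga8+ MSCs (1.66% of all genes) and 0 of 8 in Itga8-Alcam+ BLCs (2.16% of all genes). For the 7 ligands that were not called there, the fitted difference was at most 1.03 on the log2 scale (Il15, unadjusted p 0.0237, FDR 0.289), with SEs of 0.35 to 0.57. A two-sided exact permutation of 3 against 3 libraries has 0.1 as its smallest possible p, so it could not pass a threshold of 0.05.

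Read per length, the ligands made up different mixtures. TPM, the share of transcripts scaled to 1e6 and computed with the exon union of each gene in GENCODE M21, allow levels of different genes to be set side by side. The summed TPM of the 8 ligands lay between 17880 and 25277 in CD51+CD140a+ MSCs. Sca-1+ MSCs had 312 to 368, Itga8+ MSCs had 169 to 299 and Itga8-Alcam+ BLCs had 82.3 to 141. Cxcl12 held 94.0% ± 1.29 (SD, n = 3 libraries here and below) of that sum in CD51+CD140a+ MSCs. Its share was 61.6% ± 3.06 in Sca-1+ MSCs, 75.3% ± 7.35 in Itga8-Alcam+ BLCs and 47.3% ± 24.1 in Itga8+ MSCs. Ptn held 45.4% ± 24.9 in Itga8+ MSCs, with 73.5% in the library where it was highest, and 0.0513% ± 0.0263 in CD51+CD140a+ MSCs. In TPM, Cxcl12 (112 ± 82.8) and Ptn (95.7 ± 45.2) of Itga8+ MSCs overlapped, and their order turned when TMM-scaled counts per kilobase were used in place of TPM. The next ligand also differed between populations: Kitl was second in CD51+CD140a+ MSCs, with 811 ± 97.0 TPM, whereas Ptn was second in both Sca-1+ MSCs (78.3 ± 13.7 TPM) and Itga8-Alcam+ BLCs (15.3 ± 3.88 TPM). Il15 had a higher mean TPM than Kitl in the 3 bone populations, 13.9 against 8.31 in Sca-1+ MSCs, and a lower one in CD51+CD140a+ MSCs, 63.7 against 811. In both Alcam+ populations the libraries of Il15 and Kitl overlapped. Il7 held a small share in every population, with a lowest mean of 0.394% ± 0.155 (Itga8+ MSCs) and a highest of 1.03% ± 0.498 (Itga8-Alcam+ BLCs).

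**Figure D3:**
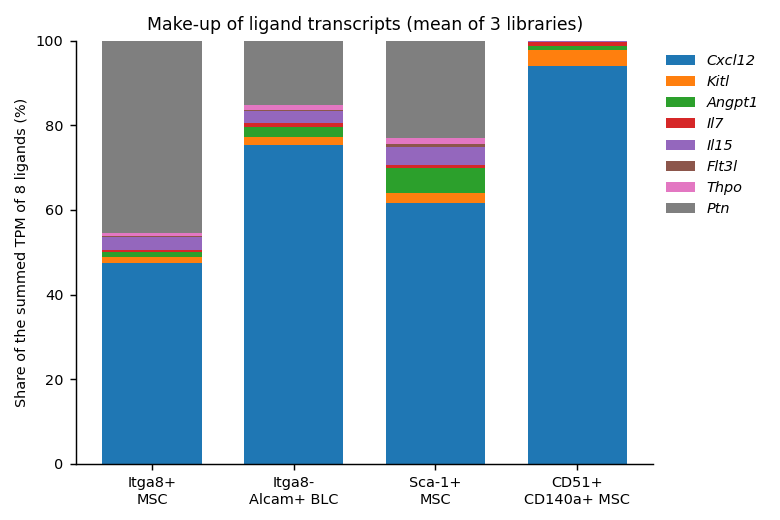
Share of each ligand in the summed TPM of the 8 ligands (vertical, percent, bars start at 0) in the 4 populations (horizontal), as the mean of 3 libraries. Cxcl12 fills 94.0% of the bar of CD51+CD140a+ MSCs, and Ptn takes 45.4% of that of Itga8+ MSCs.

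The members' patterns over the 12 libraries were compared by Pearson's r on log2(TMM CPM + 1), a description over libraries that fall into 4 populations. Cxcl12, Kitl and Il7 were nearly parallel, with r of 0.99 for each pair, and Angpt1 followed them with r of 0.95. Thpo and Ptn had r of -0.47 and -0.69 with Cxcl12. Among 10007 genes with at least 10 CPM in a population, the gene most like Cxcl12 was Il7, and the most like both Kitl and Il7 was Cxcl12. Vcam1, an adhesion molecule for blood cells, was second for Cxcl12 (r 0.99, mean level 3946 CPM in CD51+CD140a+ MSCs and 51.8 to 92.0 CPM in the bone populations). The hypoxia-response factor gene Epas1 came next for Cxcl12, and Vcam1 and Serpina3c were the other two for Il7. Cyp1b1, Ak3 and Rspo2 were most like Angpt1, and for Rspo2, a Wnt agonist gene, mean levels in CD51+CD140a+ MSCs were 117 CPM, against 10.9 CPM in Sca-1+ MSCs and 0.226 and 0.278 CPM in the Alcam+ populations. Armt1, Taf9b and Gypc were most like Il15, and Ccnl2, Mycbp2 and the chemokine gene Ccl2 most like Flt3l. For Thpo these were Chst1, Plekha1 and Csgalnact2. Ptn was most like Mxra7 (r 0.97), which had means of 131 CPM in Itga8+ MSCs, 86.2 CPM in Sca-1+ MSCs, 22.4 CPM in Itga8-Alcam+ BLCs and 15.8 CPM in CD51+CD140a+ MSCs, and then Galr2 and the cyclin gene Ccnd2.

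The receptors of these ligands were read from the same libraries, as a list of 15 genes of which 13 passed the filter (Alk and Ltk, with at most 1 count in a library, did not). Against CD51+CD140a+ MSCs, 4 of 13 were called higher in Itga8+ MSCs (median log2 fold change of the list 0.72), as were 21.2% of all genes. The counts were 7 of 13 in Itga8-Alcam+ BLCs (median 1.91), beside 20.4% of all genes, and 3 of 13 in Sca-1+ MSCs (median 0.34), beside 11.2% of all genes. Among the 7 were the lymphocyte receptor genes Il2rb, Il2rg and Il7r, singled out after their values were seen, with 3.54 to 7.37, 14.3 to 27.3 and 0.180 to 0.927 CPM in Itga8-Alcam+ BLCs against at most 0.258, 7.62 and 0.0819 CPM in CD51+CD140a+ MSCs. The summed haematopoietic markers moved the same way (4384 to 6561 CPM against 1000 to 1706 CPM), and their part in the receptor counts was not tested. Il7r lay near the floor, as its 0.180 CPM (Itga8-Alcam+ replicate 3) and 0.0819 CPM (CD51+CD140a+ replicate 1) each stood for 3 counts. In these comparisons edgeR called 0 of 13 higher in CD51+CD140a+ MSCs with all libraries (14.3%, 14.9% and 9.30% of all genes). Of the 13, 1 had an unadjusted p under 0.05 in that direction, Kit against Sca-1+ MSCs (p 0.0416), which DESeq2 called (log2 fold change -2.10, FDR 0.0731). With single libraries left out, edgeR called Tek higher in CD51+CD140a+ MSCs than in Itga8+ MSCs (without Itga8+ replicate 1, -2.97, FDR 0.0269) and Itga8-Alcam+ BLCs (without replicate 2, -2.57, FDR 0.0625), and Ptprz1 than in Itga8+ MSCs (without CD51+CD140a+ replicate 2, -1.72, FDR 0.0658). The 6 most abundant are described here.

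Ackr3, the receptor that takes up CXCL12 without classical signalling, ran opposite to its ligand between CD51+CD140a+ MSCs and bone. It stood at 1.50, 2.12 and 0.515 CPM in CD51+CD140a+ MSCs and at 642, 621 and 547 CPM in Sca-1+ MSCs. Itga8+ MSCs had 89.6, 130 and 89.9 CPM and Itga8-Alcam+ BLCs had 84.9, 138 and 178 CPM. All 9 bone libraries lay above those of CD51+CD140a+ MSCs, and Sca-1+ MSCs lay above the overlapping Alcam+ populations. Sca-1+ MSCs exceeded CD51+CD140a+ MSCs by 8.76 ± 0.59 (SE) on the log2 scale (FDR 2.2e-06), Itga8+ MSCs did by 6.21 (FDR 8.23e-06) and Itga8-Alcam+ BLCs by 6.59 (FDR 6.12e-06). Within bone, Ackr3 was called higher in Sca-1+ MSCs than in Itga8+ MSCs (log2 fold change of Itga8+ over Sca-1+ -2.55, FDR 0.00267) and Itga8-Alcam+ BLCs (-2.17, FDR 0.00481).

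Il15ra was highest where Il15 was lowest on average, in the Alcam+ populations. It stood at 42.0, 55.4 and 33.5 CPM in Itga8+ MSCs and 62.6, 34.1 and 73.5 CPM in Itga8-Alcam+ BLCs, at 14.9, 17.2 and 17.4 CPM in Sca-1+ MSCs, and at 8.22, 7.08 and 9.02 CPM in CD51+CD140a+ MSCs. The Alcam+ populations overlapped with each other and lay above Sca-1+ MSCs, which lay above CD51+CD140a+ MSCs. All 5 of these differences were called, from a log2 fold change of 2.81 (Itga8-Alcam+ over CD51+CD140a+, FDR 9.57e-05) to 1.02 (Sca-1+ over CD51+CD140a+, FDR 0.048), and the last was lost without any of 4 of the 6 libraries and with library totals alone (log2 fold change 0.88, FDR 0.114). The summed haematopoietic markers were also higher in the Alcam+ libraries (2325 to 11978 CPM) than in the others (892 to 1748 CPM), and their part in the Il15ra level was not tested.

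Tek, the receptor of ANGPT1 known from endothelial cells, stood at 93.3, 60.3 and 56.2 CPM in Sca-1+ MSCs and at 0.208 to 4.01 CPM in the other 9 libraries. It was called higher in Sca-1+ MSCs than in Itga8+ MSCs (log2 fold change of Itga8+ over Sca-1+ -5.44, FDR 0.00402), Itga8-Alcam+ BLCs (-5.66, FDR 0.00256) and CD51+CD140a+ MSCs (4.51 in Sca-1+ over CD51+CD140a+, FDR 0.00567). The summed level of 8 endothelial markers, with Pecam1 and Cdh5 among them and Tek not (Tie1 is in both lists), was 23.5 to 28.9 CPM in Sca-1+ MSCs, inside the range of 10.5 to 43.2 CPM of the other libraries.

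Of the receptors that bind pleiotrophin, Ptprz1 stood at 24.4, 109 and 28.6 CPM in Itga8-Alcam+ BLCs and at most at 6.25 CPM elsewhere. It was the 1 receptor called between the Alcam+ populations, higher in Itga8-Alcam+ BLCs (log2 fold change of Itga8+ over Itga8- -4.84 ± 1.16 (SE), FDR 0.0509), where Ptn was lower. Sdc3, the gene for the heparan sulphate proteoglycan syndecan-3, spread widely in the Alcam+ populations (418, 57.5 and 1569 CPM in Itga8+ MSCs, 463, 1405 and 129 CPM in Itga8-Alcam+ BLCs) and stood at 68.6 to 121 CPM in the other 6 libraries. Over CD51+CD140a+ MSCs it was called higher in Itga8+ MSCs (log2 fold change 3.02, FDR 0.0373), although the lowest Itga8+ library lay under all 3 of CD51+CD140a+ MSCs, and the call was lost without Itga8+ replicate 3 (log2 fold change 1.52, FDR 0.171) or CD51+CD140a+ replicate 2 (2.89, FDR 0.106) and with limma-trend (2.01, FDR 0.146). The call of Itga8-Alcam+ BLCs over CD51+CD140a+ MSCs (2.99, FDR 0.0378) was lost without Itga8-Alcam+ replicate 2 (1.82, FDR 0.148) or CD51+CD140a+ replicate 2 (2.86, FDR 0.109). Kit, the receptor of KITL and a marker of blood progenitors and mast cells, stood at 40.3 to 49.0 CPM in CD51+CD140a+ MSCs and at 1.32 to 35.8 CPM elsewhere, and was not called by edgeR with all 12 libraries in any comparison (lowest FDR 0.157). In an edgeR fit of the 2 populations alone it was called lower in Sca-1+ MSCs (log2 fold change over CD51+CD140a+ MSCs -2.14, FDR 0.000241). Without Itga8-Alcam+ replicate 2 it was called lower in Itga8-Alcam+ BLCs than in CD51+CD140a+ MSCs (log2 fold change -2.85, FDR 0.0451), as it was by limma-trend with all libraries (-2.44, FDR 0.0898).

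**Figure D4:**
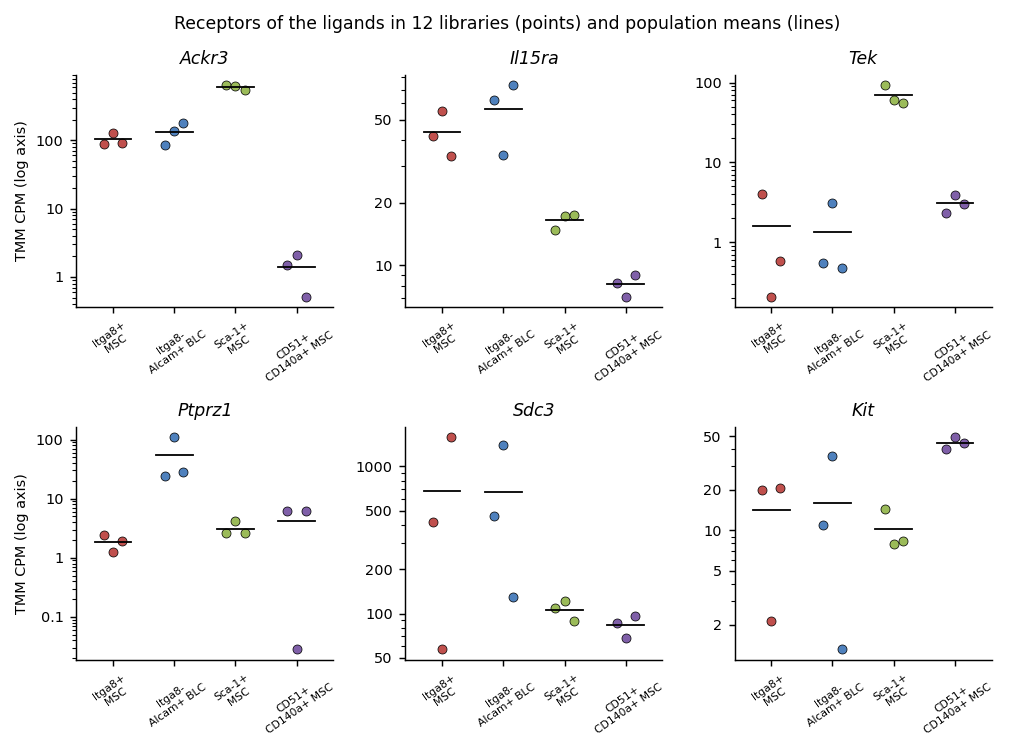
Levels of the 6 most abundant receptor genes in TMM CPM (vertical log axes, a range of their own for each gene) in the 4 populations, with 1 point per library and a line at the mean of 3 libraries. Ackr3 is lowest in CD51+CD140a+ MSCs at 0.515 to 2.12 CPM, and Tek stands out in Sca-1+ MSCs.

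Of 32 other genes for niche factors (adhesion, Notch and cytokine ligands, and further growth factors), 31 were tested. In CD51+CD140a+ MSCs, 15 were called higher and 5 lower than in Itga8+ MSCs (14.3% and 21.2% of all genes), 17 higher and 5 lower than in Itga8-Alcam+ BLCs (14.9% and 20.4%), and 14 higher and 5 lower than in Sca-1+ MSCs (9.30% and 11.2%). Their median log2 fold changes over CD51+CD140a+ MSCs were -1.003, -1.96 and -2.11. Among the 6 most abundant, Vcam1, Gas6 (a ligand of TAM receptors), Csf1 (the macrophage growth factor) and Angptl4 were highest in CD51+CD140a+ MSCs and called in all 3 comparisons. Gas6 stood at 5466 to 6347 CPM there, 611 to 716 CPM in Sca-1+ MSCs, 143 to 325 CPM in Itga8+ MSCs and 89.2 to 121 CPM in Itga8-Alcam+ BLCs, and was called higher in Itga8+ MSCs than in Itga8-Alcam+ BLCs (log2 fold change 1.11, FDR 0.0838). In that comparison 4 of 31 factors were called higher in Itga8+ MSCs and 2 of 31 in Itga8-Alcam+ BLCs, beside 1.66% and 2.16% of all genes. Csf1 was called higher in Sca-1+ MSCs (384 to 562 CPM) than in Itga8+ MSCs (16.0 to 86.9 CPM, FDR 0.00676) and Itga8-Alcam+ BLCs (20.4 to 67.2 CPM, FDR 0.00285). Angptl2 took the opposite course, with 204 to 938 CPM in Itga8+ MSCs, 403 to 713 CPM in Sca-1+ MSCs and 198 to 237 CPM in CD51+CD140a+ MSCs. The lowest Itga8+ library (204 CPM) lay inside the range of CD51+CD140a+ MSCs. Itga8-Alcam+ BLCs (214 to 593 CPM) also overlapped with CD51+CD140a+ MSCs and were not called (FDR 0.174). The calls of Itga8+ and Sca-1+ MSCs over CD51+CD140a+ MSCs (FDR 0.0487 and 0.081) did not outlast the loss of single libraries: the first was lost without Itga8+ replicate 3 or any library of CD51+CD140a+ MSCs, and the second without any of 5 of the 6 libraries, with library totals alone (FDR 0.112) and with the replicate block (FDR 0.145). Spp1, the osteopontin gene, which is also 1 of the 10 osteoblast markers, overlapped between CD51+CD140a+ MSCs and each bone population and was not called there (FDR 0.182, 0.363 and 0.975). Without Itga8+ replicate 2 it was called lower in Itga8+ MSCs (log2 fold change -1.28, FDR 0.0913).

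The ligands were then set beside 12 markers of LepR+ marrow stroma. Of these markers, 12, 11 and 11 were called higher in CD51+CD140a+ MSCs than in Itga8+ MSCs, Itga8-Alcam+ BLCs and Sca-1+ MSCs, beside 14.3%, 14.9% and 9.30% of all genes, with median log2 fold changes of -5.69, -5.58 and -5.53. The call of Ebf1 against Sca-1+ MSCs (log2 fold change -1.04, FDR 0.0565) was lost without Sca-1+ replicates 1, 2 or 3 or CD51+CD140a+ replicates 2 or 3 (-1.10 to -0.98, FDR 0.12 to 0.165). The summed level of the 12 markers was 18936 to 22119 CPM in CD51+CD140a+ MSCs and 412 to 670 CPM in the bone libraries, with no marker at 0 in a whole population. Each level was expressed as a percentage of its mean in CD51+CD140a+ MSCs. Prrx1 stood above that mean in Sca-1+ MSCs (127% to 152%), and Foxc1 stood at 31.3% to 68.7% in Itga8-Alcam+ BLCs. In Itga8+ MSCs, Cxcl12 stood at 0.315% to 1.02%, Kitl at 0.209% to 0.635% and Il7 at 0.391% to 0.913%. By their means, 10 of the 12 markers stood above all 3 of these ligands there, Lepr (0.213% to 1.01%) lay among them and Esm1 (0.193% to 0.501%) below. Of the 6 most abundant markers, those above were the adipokine gene Adipoq (0.597% to 1.21%), the lipoprotein lipase gene Lpl (1.49% to 2.54%), the haptoglobin gene Hp (1.47% to 6.60%) and Ebf1 (7.36% to 20.1%). In Itga8-Alcam+ BLCs, where Cxcl12 stood at 0.462% to 0.668%, Kitl at 0.309% to 0.438% and Il7 at 0.318% to 1.24%, 8 of the 12 markers stood above all 3 ligands, Adipoq (0.592% to 2.28%), Hp (3.16% to 4.30%) and Ebf1 (2.82% to 3.71%) among them. Lepr (0.135% to 0.805%) and Lpl (0.511% to 1.02%) lay among the ligands, as did Ebf3, and Esm1 (0.167% to 0.296%) below. In Sca-1+ MSCs, Cxcl12 stood at 0.999% to 1.15%, Kitl at 0.986% to 1.20% and Il7 at 1.32% to 1.75%. There 8 of the 12 markers stood above all 3 ligands by their means, including Lepr, Ebf1 and Lpl (1.52% to 2.34%), and 4 stood below. Those below were Adipoq (0.0209% to 0.124%), Esm1 (0.0620% to 0.127%), Hp (0.336% to 0.988%) and Grem1 (0.0933%, 1.37% and 1.66%). Grem1 lay below by its mean only, because of Sca-1+ replicate 1. Angpt1 (8.22% to 8.97%) and Il15 (21.5% to 27.6%) stood at higher percentages in these cells. By their means, most markers thus stood above Cxcl12, Kitl and Il7, with 1 below in each Alcam+ population and 4 below in Sca-1+ MSCs. The part of LepR+ stroma in the ligand levels was not tested. Lepr itself (2.98% to 3.50%) and Ebf1 (45.5% to 53.1%), a transcription factor gene of this stroma, were called higher in Sca-1+ MSCs than in Itga8+ MSCs (FDR 0.019 and 0.00307) and Itga8-Alcam+ BLCs (FDR 0.00681 and 5.64e-05).

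**Figure D5:**
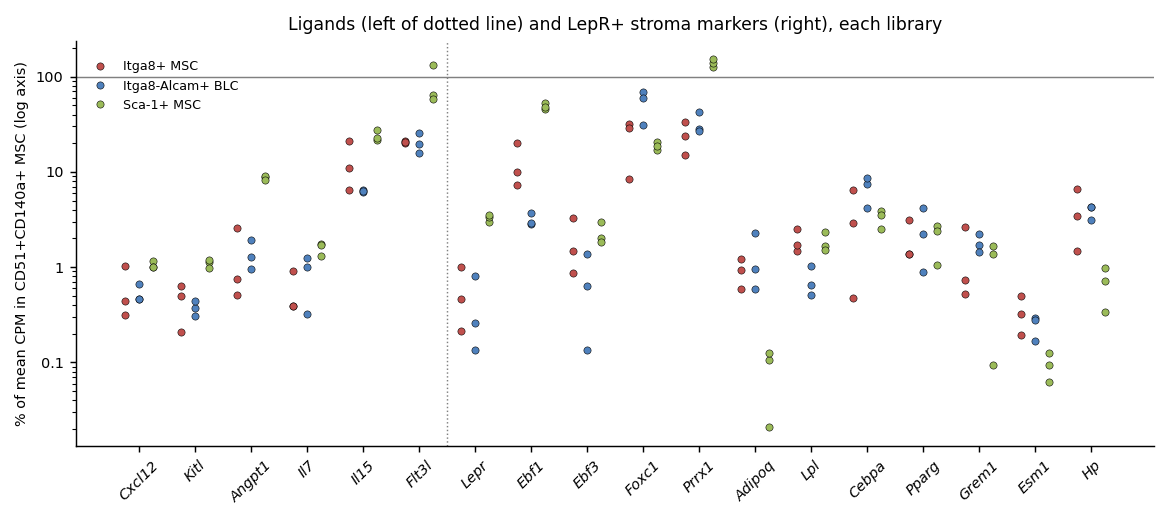
Levels of 6 ligands (left of the dotted line) and 12 LepR+ stroma markers (right) as a percentage of the gene's mean CPM in CD51+CD140a+ MSCs (vertical log axis, grey line at 100), with 1 point for each of the 9 bone libraries. Cxcl12, Kitl and Il7 lie between 0.986% and 1.75% in Sca-1+ MSCs, where by their means 8 of the 12 markers lie above them and 4 below.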

How the data were processed

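Gene counts were deposited by the authors as whole numbers of reads per Ensembl gene, 1 file per library, with no normalization. RNA was isolated with NucleoSpin RNA Plus XS, amplified with SMART-Seq v4, made into libraries with Nextera XT and sequenced on a NextSeq 500. The submitters' processing notes name FastQC 0.11.7, Trimmomatic 0.38, HISAT2 2.1.0, SAMtools 1.9, featureCounts 1.6.3 and mm10, whereas the study's methods name TopHat and Bowtie2, also with mm10. The annotation release and the use of strand are not given in the sources used here.

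Groups were taken from the sample labels. Of 49585 gene identifiers, 49326 matched GENCODE M21 (GRCm38), which gave symbols, coordinates and exon lengths. The counts as deposited were analysed with R 4.3.3 and edgeR 4.0.16 in 1 quasi-likelihood fit of all 12 libraries with TMM factors, for the 18648 genes that reached 0.5 CPM in 1 or more libraries, and a two-sided call required an FDR (Benjamini-Hochberg) under 0.1 and a fold change over 2. The SE of a log2 fold change was its absolute value divided by the square root of the quasi-likelihood F. TPM was computed from the counts and the exon union. Likeness was Pearson's r on log2(TMM CPM + 1) among genes whose mean reached 10 CPM in a population, leaving out symbols that begin with Gm and a digit or end in Rik. All 8 ligands are named, with the 3 genes most like each, and from each list of receptors, other niche factors and LepR+ stroma markers the 6 genes with the highest mean CPM. Members and lists were chosen with earlier results of these data known. Alternatives were DESeq2 1.42.0, limma-trend (limma 3.58.1), other scalings and filters, a replicate block, fits of the populations compared alone, thinned counts, an FDR of 0.05 and the omission of each library. The scripts were tested on simulated counts. Figures were drawn with matplotlib 3.10.9 in Python 3.11.15. No pair of libraries of 1 population was identical or differed by sampling noise alone (chi-square per gene 19.6 to 592), so none was treated as deposited in duplicate.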

Additional observations from a re-analysis of the deposited data

How the results depend on the processing

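All 20 ligand calls against CD51+CD140a+ MSCs held in the 200 refits with another setting and the 120 that left out 1 library. Of the 11 ligand calls among the bone populations, 7 of 110 refits with another setting and 11 of 66 without a library lost the call. Of 42 calls of the named receptors, niche factors and markers against CD51+CD140a+ MSCs, 6 of 420 and 22 of 252 refits lost the call. Between Itga8+ and Sca-1+ MSCs the number of ligands called moved from 4 to 7 with limma-trend and to 2 when only their libraries were fitted, where Kitl and Il7 were lost (FDR 0.123 and 0.109). Between Itga8+ MSCs and Itga8-Alcam+ BLCs it moved from 1 to 0 when only their libraries were fitted, and was 1 to 2 with 1 library left out. The cause was not tested.

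Fitted differences with no call changed sign in some refits. For Itga8+ over Itga8-Alcam+, Cxcl12 (-0.0055) and Thpo (-0.13) turned with limma-trend, Angpt1 (0.094) with library totals alone and Flt3l (-0.076) with thinned counts. With 1 library left out, Cxcl12 ranged from -0.49 to 0.48, Kitl from -0.087 to 0.63, Angpt1 from -1.14 to 0.26, Flt3l from -0.11 to 0.21 and Thpo from -0.31 to 0.56 there, and Ptn from -0.21 to 0.93 for Itga8+ over Sca-1+. Over CD51+CD140a+ MSCs, Ptprz1 was 0.19 (Itga8+) and 0.92 (Sca-1+) with limma-trend and -0.99 to 0.012 (Sca-1+) with a library left out. Spp1 was -0.077 (Sca-1+) with library totals alone, and with a library left out -0.22 to 0.94 (Itga8-Alcam+) and -0.15 to 0.26 (Sca-1+).

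Library totals alone moved the median over all genes by 0.26 (Itga8+ over Itga8-Alcam+), -0.10 (Itga8+ over CD51+CD140a+), -0.18 (Itga8-Alcam+ over Sca-1+), -0.33 (Itga8-Alcam+ over CD51+CD140a+) and -0.14 (Sca-1+ over CD51+CD140a+). The share of calls that were higher in the first population went from 43.5% to 61.3%, from 54.9% to 42.6%, from 57.9% to 41.8% and from 54.7% to 48.4% for Itga8+ over Itga8-Alcam+, Itga8-Alcam+ over Sca-1+, Itga8-Alcam+ over CD51+CD140a+ and Sca-1+ over CD51+CD140a+.

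The libraries share replicate numbers across populations, but same-numbered libraries did not deviate together (correlations -0.74 to 0.34 over 18 pairs of libraries, median -0.013). Libraries of different populations with different numbers had correlations of -0.46 to 0.78 (median -0.0018). Some of these did deviate together, which a block on the replicate number does not take up. With the replicate block, 1, 4, 7, 5, 6 and 7 ligands were called, in the order Itga8+ over Itga8-Alcam+, Sca-1+ and CD51+CD140a+, Itga8-Alcam+ over Sca-1+ and CD51+CD140a+, and Sca-1+ over CD51+CD140a+, all 8 ligands differed among populations, and the 1 ligand call lost was Thpo in Itga8-Alcam+ BLCs against Sca-1+ MSCs (-1.41, FDR 0.164). Depth limits Thpo (7 to 77 counts in a library) and Flt3l (9 to 110 counts), and in the bone libraries also Il7 (17 to 98 counts).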
